A study of Mus musculus with 2 samples.

Results

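B cells made up 88 of the 1344 lung cells sorted for a p16 reporter from old mice, a share of 6.55% with a 95% exact (Clopper-Pearson) binomial interval of 5.28 to 8.005%. A cell was taken as a B cell when it held at least 1 UMI (unique molecular identifier, a count of captured RNA molecules) of each of Ms4a1, Cd79a and Cd79b and when the mean deposited value of the endothelial genes Cldn5, Cdh5, Ramp2 and Egfl7 was below 2 on the natural-log scale. The members were thus chosen by the measured values of these 7 genes, whose levels describe the selection and are not findings. The animals were p16-FDR mice on the C57BL/6 background, aged 20 to 22 months, whose reporter allele carries an FLP recombinase and a diphtheria toxin receptor joined to the red fluorescent protein mCherry. Lung cells positive for mCherry were sorted by flow cytometry and profiled one by one with 3' droplet RNA sequencing. The study has 1 group with 2 samples. Every mouse carried the reporter, and no mCherry-negative or young cells were analysed here. No agent is named in the labels.

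B cells recognise antigen through a receptor made of a membrane immunoglobulin and the signalling pair encoded by Cd79a and Cd79b, and they present what they take up on class II major histocompatibility molecules. Follicular B cells circulate through lymphoid tissue, marginal zone and B-1 cells respond early and with little T cell help, and activated cells can become plasma cells that secrete antibody. In the lung, B cells are found in the tissue and its vessels and in lymphoid aggregates that grow more common with age. The reporter follows Cdkn2a, whose product p16 blocks the kinases that drive cells into division and accumulates in senescent cells.

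The cell names carry 2 library numbers that match neither sample, so the cells were treated as 1 pooled sample. Library 1 held 85 B cells among 1145 cells (7.42%) and library 2 held 3 among 199 (1.51%), with 0 barcodes shared. Cells are not replicates of a condition, and with 1 pooled sample no test across samples was possible. A rate below is the summed UMIs of a gene per 10000 UMIs of the cells named, with a 95% exact Poisson interval, and a difference is called when rates differ by at least 2-fold after adding 0.1 UMI per 10000 to each side. The intervals cover counting error only. B cells had a median of 6959 UMIs (lowest 2793, highest 41631). The comparison cells were the other 1256 cells (median 5766.5), among them 611 endothelial cells at or above the same limit of 2 (median 5299) and 95 T cells with UMIs of Cd3d, Cd3e and Cd3g (median 3771).

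The edges of the rule were clear for the endothelial limit and softer for the markers. The highest endothelial mean inside was 0.282, while 4 cells with all 3 markers lay outside at 2.18, 2.48, 2.78 and 3.21. Another 20 cells held 2 of the 3 markers. Among the members, 6 held exactly 1 UMI of at least 1 marker, 4 of them of Ms4a1 and 2 of Cd79b. Ms4a1, which encodes the surface protein CD20, ran from 1 to 32 UMIs per cell with a median of 7. Cd79a ran from 3 to 66 with a median of 19, and Cd79b from 1 to 31 with a median of 8.

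The B cells were divided into 3 unequal kinds, and counts over gene lists are given for all 88 and for the largest kind alone. In 7 cells, here called immunoglobulin-rich, over 20% of all UMIs came from immunoglobulin constant genes (29.3 to 72.9%), and their median depth was 27253 UMIs. Of these 7, 2 were among the 3 B cells of library 2. A further 3 cells held at least 2 markers at 2 or more UMIs from the list of another cell type, with the T cell list left out of this rule. In the first of them, of 26730 UMIs, 6054 came from Scgb1a1, the club cell secretory protein. The second, of 36376 UMIs, held 180 UMIs of the fibroblast collagen gene Col3a1. The third, of 12849 UMIs, held UMIs of 4 dendritic cell markers and 25 UMIs of Lyz2, a lysozyme of macrophages. The remaining 78, called core B cells, had a median of 6658.5 UMIs, of which 1.18% at the median came from immunoglobulin constant genes (0.273 to 5.51%). Of the 78, 77 were in library 1. Of these 78, 15 (median 10457 UMIs) held at least 2 T cell markers at 2 or more UMIs, mostly Cd3g (13 cells), Cd2 (13) and Lck (10), and 3 of the 15 had any UMI of Cd3d, Cd3e, Trac or Trbc2. They stayed in the core. With all 18 cells that held such markers of any list left out of the 88, the numbers of genes higher and lower than in the other cells were 556 and 2272, against 555 and 2021. This division was made after seeing the data, and no doublet caller was run.

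B cell genes that the rule did not use were frequent in core B cells. The B lineage factor Pax5 had a UMI in 57 of 78 cells and the scaffold gene Bank1 in 72, both against 0 of 95 T cells. Ighm, the IgM heavy chain, was present in 74. Of 10 T cell markers, Trac was seen in 1 core cell, Cd3d and Cd3e in 2 each, and Tcrg-C1 and Trdc in 0. Cd2 and Cd3g were seen in 63 and 22 core cells, and the kinase gene Lck in 29. Of the macrophage list, C1qa, C1qc and Marco were at 0, and of the endothelial genes outside the rule Kdr and Tek. The other macrophage genes and the other endothelial genes outside the rule had UMIs. The whole macrophage list was at 0.745 and 1.27 per 10000 in core cells with and without Cdkn2a, against 97.4 in the other cells. For the whole endothelial list, rule genes included, these rates were 0.698, 0.855 and 101.5. The 5 neutrophil genes were all at 0. As a gauge of RNA shared between cells, picked after its values were seen, Scgb1a1 had a UMI in 73.1% of core B cells at 1.70 per 10000, in 63 of 95 T cells at 3.18 and in endothelial cells at a rate of 1.71.

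Genes of the B cell receptor complex and of its nearest signalling partners were higher in B cells than in the other cells. Of 8050 genes with a UMI in at least 10% of either side, 555 (6.89%) were higher in the 88 B cells than in the other cells and 2021 (25.1%) were lower. For core B cells these shares were 10.4% and 25.5%. Of the 17 genes of the receptor list, 16 could be compared, and 11 were higher and 0 lower in the 88 cells, with a median log2 ratio of 1.71 against -0.32 over all genes compared. Among core cells 13 of 16 were higher. The list includes Cd79a and Cd79b, which chose the cells. Without them 9 of 14 were higher over the 88 cells (median log2 ratio 1.62) and 11 of 14 over core cells (median 1.80), and 0 were lower in either.

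Some genes of the receptor list were followed from the membrane inward. For Cd79a and Cd79b the contrast was fixed by the choice of cells, and their levels in core B cells were 28.7 and 13.2 UMIs per 10000. Cr2, a complement receptor, was found in only 5 of 78 core cells. Syk, the kinase that docks on the Cd79 pair, was at 3.55 (3.08 to 4.07) in core cells and 0.0516 in T cells. Blnk, the linker that Syk phosphorylates, was at 1.82 (1.49 to 2.20) against 0.0258 in T cells. The lipase gene Plcg2 and the kinase gene Btk were lower in level, at 0.606 and 0.779. Blk, another receptor kinase, had overlapping intervals, at 1.80 (1.47 to 2.18) in core B cells and 1.34 (1.003 to 1.76) in T cells.

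Of the receptor list, 2 promoters are shown because their windows hold a match to a motif known from B cell promoters. Blnk was not used by the rule, whereas Cd79a chose the cells, so that its level says nothing about its promoter. The sequences are RefSeq's for GRCm38.p6, 250 bases upstream of the RefSeq start, written 5′ to 3′ on the gene's strand with the motif match in capitals. Cd79a lies on the plus strand of chromosome 7 and this window is chr7:24897247-24897496, with a match to the ETS motif GGAAGTG beginning 54 bases before the start. Blnk lies on the minus strand of chromosome 19, the window is chr19:40994222-40994471, and a match to the octamer motif ATGCAAAT, here on the opposite strand, begins 130 bases before the start.
Cd79a promoter: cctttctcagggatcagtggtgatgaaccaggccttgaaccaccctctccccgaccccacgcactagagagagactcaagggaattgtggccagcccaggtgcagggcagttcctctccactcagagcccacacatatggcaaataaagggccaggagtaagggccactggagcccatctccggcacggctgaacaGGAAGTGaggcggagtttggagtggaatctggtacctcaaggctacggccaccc
Blnk promoter: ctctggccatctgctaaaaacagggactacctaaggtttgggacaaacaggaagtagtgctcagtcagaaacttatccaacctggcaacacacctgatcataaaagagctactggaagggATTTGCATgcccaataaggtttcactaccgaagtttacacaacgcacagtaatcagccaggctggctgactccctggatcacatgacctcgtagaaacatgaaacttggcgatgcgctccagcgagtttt
Both strands of the 300-base RefSeq windows were searched, and the ETS and PU.1 motifs can overlap. The octamer was in 1.74% of 32851 windows, in 1.53% of the genes compared, in 13 of 389 genes higher in B cells with a window (3.34%) and in 1.30% of the lower genes. The PU.1 motif GAGGAAGT was in 3.20% of windows, 4.19% of the genes compared, 8.48% of the higher genes and 3.65% of the lower ones. The ETS motif was in 18.7% of the genes compared, 18.8% of the higher and 13.5% of the lower ones. The EBF1 motif was in 1.39%, 1.80% and 2.21% in the same order, highest in the lower genes. The NF-kappaB motif was in 8.77%, 11.3% and 9.96%. A match of letters is a description of the window and not a binding site. Ms4a1 and Cd79b had no window to search.

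Inhibitory receptors, which raise the threshold for B cell activation, were higher as a group. Of 9 genes compared, 8 were higher in the 88 B cells and 9 in core cells, and 0 were lower. Over all genes compared, 6.89% and 10.4% were higher. Siglecg, a sialic acid receptor with a role in B-1 cells, was at 3.13 (2.69 to 3.62) in core cells, against 0.0528 in the other cells and 0.0516 in T cells. The related receptor gene Cd22 was at 1.18 (0.914 to 1.49) against 0.0337. Fcrl5, an Fc receptor-like gene of innate-like and antigen-experienced B cells, was found in 46 of 78 core cells at 1.54 (1.24 to 1.90), in 0 of 95 T cells and at 0.00449 in the other cells. Ptpn6, the phosphatase that these receptors recruit, was at 4.10 against 0.723 in T cells. Cd5 was the exception among surface receptors: 7 of 78 core B cells held a UMI, at 0.121 (0.0487 to 0.2497), while T cells stood at 0.8003.

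The B lineage transcription factors were mostly higher too. Of 16 factors compared, 10 were higher and 0 lower in the 88 cells, and 10 of 17 were higher in core cells. The shares of all genes that were higher were 6.89% and 10.4%. Ebf1, which opens the B cell programme, had a UMI in all 78 core cells, at 9.89 (9.09 to 10.7) against 0.756 in the other cells. Pax5, which holds cells in that programme, was at 1.80 (1.47 to 2.18) against 0.0135. Spib, a PU.1 relative, was at 1.94 (1.60 to 2.33) against 0.0124, and 0 of 95 T cells held a UMI of either Pax5 or Spib. Bach2, a factor that delays plasma cell fate, was found in only 8 core cells, at 0.173 (0.0830 to 0.318), close to the 0.153 of the other cells. Ets1 stood at 2.35 (1.98 to 2.79), below the 7.85 (6.99 to 8.78) of T cells.

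**Figure D1:**
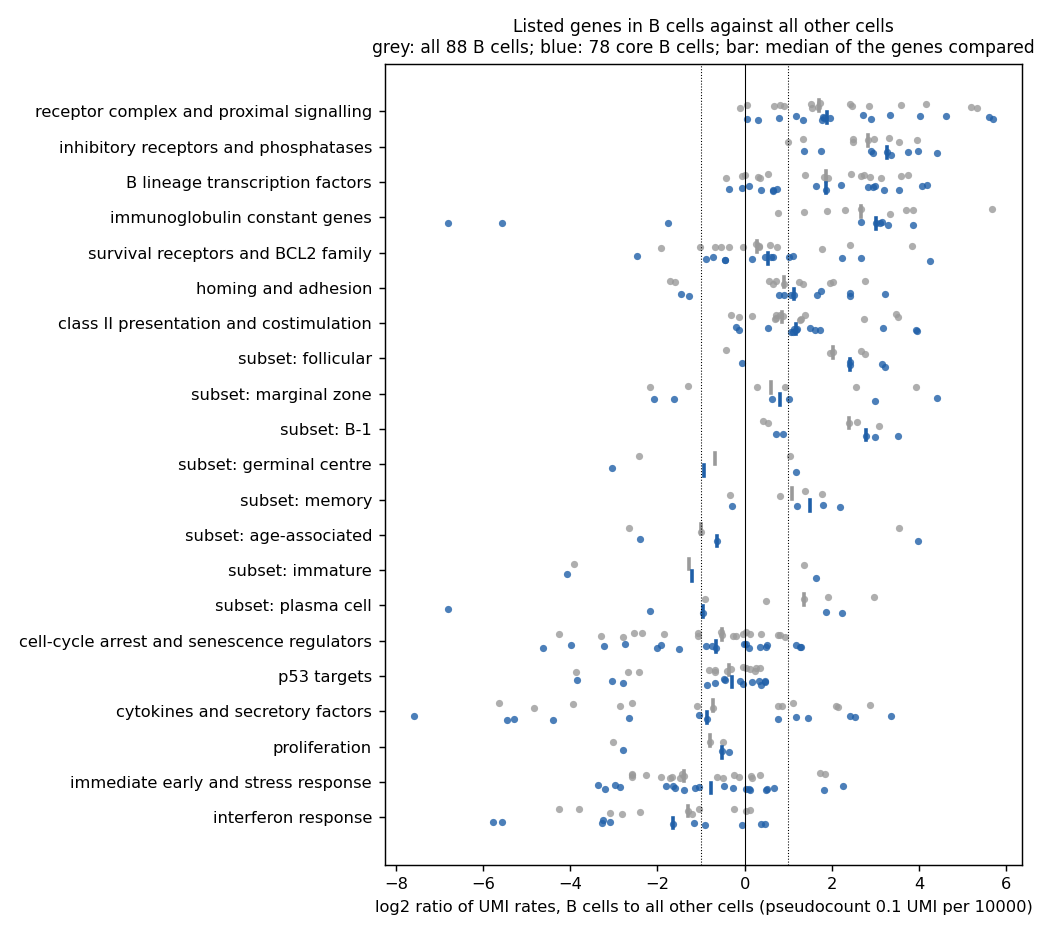
Log2 ratio of UMI rates, B cells over all other cells, for each gene compared in each list (points) with the list's median, drawn in grey for all 88 B cells and in blue for the 78 core B cells. Dotted lines mark 2-fold. Receptor, inhibitory and transcription factor genes lie mostly above 0, and interferon genes, with 8 of 11 lower over the 88 cells, lie mostly below.

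Immunoglobulin RNA divided the B cells. The 7 immunoglobulin-rich cells held 93.2% of the constant gene UMIs of all 88. Every one of the 7 had UMIs of Sdc1 (the plasma cell surface marker CD138), Xbp1 and Irf4 (factors of antibody secretion) and Derl3 (a protein quality control gene), while Pax5, Spib and Ciita were at 0 of 7. Jchain, which joins IgM and IgA into polymers, ran from 183 to 3257 UMIs in these cells and never passed 3 in a core cell. Igkc ran from 1744 to 23562 UMIs in the 7 and from 0 to 369 in core cells, with a median of 41. By leading heavy chain, 4 were Ighm cells, 2 Igha and 1 Ighg1, and all 7 carried kappa light chains. Outside the B cells, 17 of 1256 cells were also over 20% immunoglobulin (58.5 to 77.6%), and they lacked at least 1 of the 3 markers.

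Several immunoglobulin ratios turned between all 88 B cells and the core B cells. Igkc had a log2 ratio of 1.88 to the other cells over all 88 and of -1.76 over core cells. Jchain went from 1.36 to -6.81. Over all 88, 8 of 9 constant genes compared were higher and 0 lower, and over core cells 6 were higher and 3 lower. The other cells include the 17 over 20% immunoglobulin, with 523843 of their 8899544 UMIs and a median immunoglobulin share of 67.2%. How far these 17 cells set the ratios was not tested, so a negative ratio does not describe the other cells at large. Against T cells, where 615 of 6687 genes (9.20%) were higher in B cells and 861 (12.9%) lower, 9 of 9 constant genes were higher. For core B cells 8 of 9 were higher than in T cells, beside 11.8% of all genes compared, and 11.6% of all genes were lower. T cells held Igkc at 2.30 (1.84 to 2.83) with a UMI in 42 of 95, against 79.99 (77.7 to 82.3) in core B cells.

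Most core B cells were unswitched. The leading heavy chain was Ighm in 74 of 78, Igha in 2 and Ighg2b in 1, and 1 cell had under 3 UMIs of each constant gene. Ighm ran from 0 to 85 UMIs per core cell with a median of 18. Ighd, the IgD heavy chain of mature naive cells, was found in 31 of 78 core cells at 1.09 (0.838 to 1.40). Ighg3, an IgG class typical of responses to polysaccharide, was found in 13 core cells at 0.589 (0.408 to 0.823) and in 0 of 95 T cells.

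At a threshold of 90% of light chain UMIs, light chains were seldom of a single kind in the core cells. B cells as a rule express either kappa or lambda. Of the 88 cells, 17 drew at least 90% of their light chain UMIs from Igkc, 3 drew as much from Iglc1, Iglc2 and Iglc3, and 68 were in between. Among core cells the counts were 10, 3 and 65. With a threshold of 80% the counts over the 88 cells were 45, 3 and 40. Whether the lambda UMIs came from rearranged genes was not tested. The lambda share of light chain UMIs in core cells ran from 0 to 100% with a median of 20.8% and quartiles of 14.2 and 40.3%, from 16 to 432 light chain UMIs per cell. UMIs of both Igkc and a lambda gene were found in 74 of 78 core cells, in 2 of 95 T cells and in 7 of 611 endothelial cells. In the 7 immunoglobulin-rich cells the lambda share was 0.449 to 4.87%. Iglc1, Iglc2 and Iglc3 are related genes, and whether reads were shared between them was not tested.

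**Figure D2:**
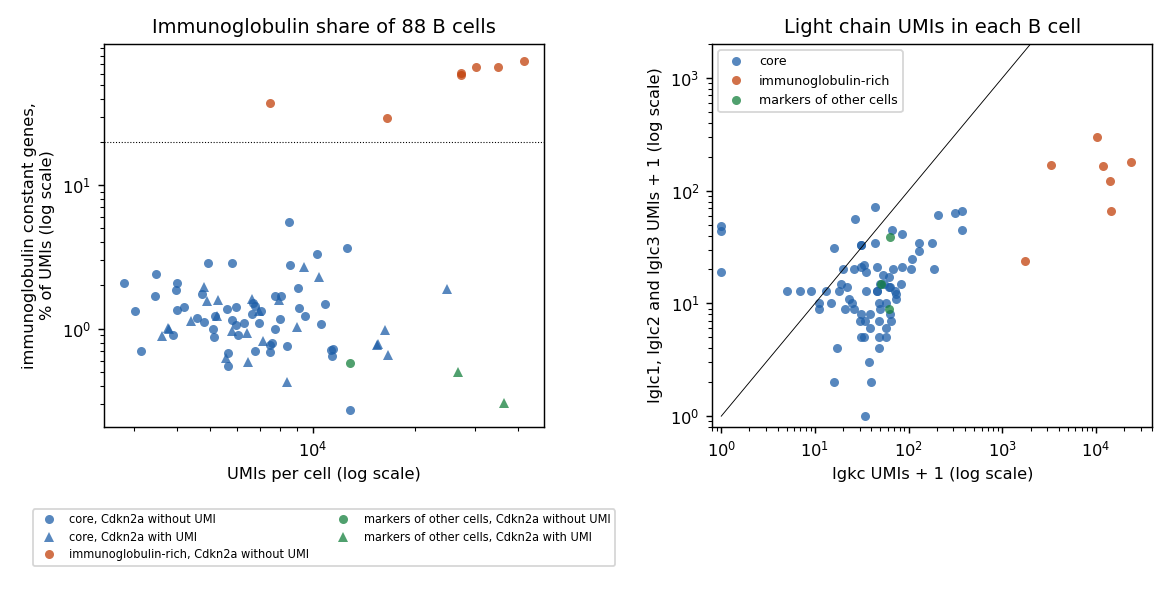
Each point is 1 of the 88 B cells, coloured by kind. Left, the percentage of UMIs from immunoglobulin constant genes against UMIs per cell, with a dotted line at 20% and triangles for cells with a Cdkn2a UMI, and right, lambda against kappa light chain UMIs (each + 1) with the line of equality, all axes being log scales. The 7 immunoglobulin-rich cells lie above the dotted line and far on the kappa side, with lambda shares of at most 4.87%, while core cells lie on both sides of equality.

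Variable segments gave a further view. The table holds 16 heavy chain and 15 kappa variable genes, and Ighv1-77 was seen in the most B cells, 23 of 88, of which 22 were core cells with 42 UMIs in all (at most 4 per cell). It was in 0 of 1256 other cells and 0 of the 7 immunoglobulin-rich cells, and 12 of the 22 held 2 or more UMIs. Igkv12-44 came next, in 20 B cells, 19 of them core, and in 2 other cells, followed by Ighv1-78 (16), Ighv6-6 and Ighv1-85 (15 each) and Igkv2-109 (14). The segments are shown because near-identical neighbours could take or share their reads. All are GENCODE M21 transcripts on GRCm38, the last 150 bases, 5′ to 3′, with the bases that differ from the other member of the pair in capitals.
Ighv1-77: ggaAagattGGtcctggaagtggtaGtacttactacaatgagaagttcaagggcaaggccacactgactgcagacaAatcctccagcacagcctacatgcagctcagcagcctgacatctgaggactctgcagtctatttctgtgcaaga
Ighv1-83: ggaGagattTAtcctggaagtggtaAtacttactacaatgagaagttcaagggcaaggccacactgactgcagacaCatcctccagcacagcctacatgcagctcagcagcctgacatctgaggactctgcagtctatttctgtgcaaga
Ighv1-78: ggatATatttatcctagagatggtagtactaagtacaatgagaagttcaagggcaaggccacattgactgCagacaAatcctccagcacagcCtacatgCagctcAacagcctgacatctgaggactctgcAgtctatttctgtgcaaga
Ighv1-85: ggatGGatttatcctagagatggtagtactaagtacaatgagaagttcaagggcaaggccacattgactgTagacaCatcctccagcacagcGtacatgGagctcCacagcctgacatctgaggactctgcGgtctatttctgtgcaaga
Igkv12-44: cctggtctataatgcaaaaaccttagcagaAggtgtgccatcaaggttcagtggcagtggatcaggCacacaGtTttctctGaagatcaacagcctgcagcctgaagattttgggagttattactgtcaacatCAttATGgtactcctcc
Igkv12-41: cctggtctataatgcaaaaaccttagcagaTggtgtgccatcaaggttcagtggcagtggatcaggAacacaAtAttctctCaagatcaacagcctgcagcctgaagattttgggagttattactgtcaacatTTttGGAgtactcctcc
Ighv1-77 (chr12:115861867-115862355) and its closest relative Ighv1-83 (chr12:115963817-115964250), annotated as a pseudogene, both lie on the minus strand and shared 145 of 150 bases (96.7%). Ighv1-78 (chr12:115868773-115869227) and Ighv1-85 (chr12:116000028-116000461) shared 142, and Igkv12-44 (chr6:69814631-69815154) and Igkv12-41 (chr6:69858420-69858884) shared 140. Ighv1-83 and Igkv12-41 are not among the genes of the table.

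Many cells held UMIs of several variable genes. Of the 44 core cells with any heavy variable UMI, 24 held 2 or more different genes, as did 15 of 38 cells with any kappa variable UMI. Of the 22 core cells with Ighv1-77, 19 held another heavy variable gene and 10 held Igkv12-44, which was found in 9 of the 56 core cells without Ighv1-77. Cells with Ighv1-77 were deeper, at a median of 7637.5 against 5967 UMIs. After drawing 2500 UMIs from each cell, the expected share of core cells with Ighv1-77 was 14.0% in place of 28.2%. Variable segments lie at the 5' end of the transcript and this library reads the 3' end, and which part of each transcript was read is not known here. Rearranged receptor sequences were not analysed here.

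Genes used to tell apart B cell subsets were mixed within single cells. At least 3 of 6 follicular genes had UMIs in 38 of 78 core cells, at least 3 of 6 B-1 genes also in 38, and 20 cells met both. In T cells these numbers were 3 and 8 of 95. Of the marginal zone list, 39 core cells held at least 3 of 7 genes. Germinal centre genes were scarce, with 62 of 78 core cells at 0 of the 4 genes in the table. Core cells were therefore not assigned to subsets. T cells were shallower than core B cells, at medians of 3771 and 6658.5 UMIs.

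Regulators associated with B-1 cells were present in many core cells. Bhlhe41, a factor needed for B-1a cells, was found in 43 of 78 core cells at 1.49 (1.19 to 1.84), in 0 of 95 T cells and at 0.132 in the other cells. Zbtb32, a transcriptional repressor known to limit memory B cell recall, was found in 35 core cells at 1.23 (0.960 to 1.55), in 4 T cells and at 0.0157 in the other cells. Either gene was seen in 55 of the 78. At 2500 UMIs per cell the expected shares were 28.9% for Bhlhe41 and 21.3% for Zbtb32, against 0 and 2.64% in T cells. Ctla4, an inhibitory receptor also made by some B-1 cells, was at 1.68 (1.36 to 2.05) in core cells, close to the 1.60 (1.23 to 2.05) of T cells. The B-1 marker genes Cd5 and Spn were found in 7 and 15 core cells. Plac8, of the marginal zone list, was at 11.6 (10.7 to 12.5) against 0.446 in the other cells, and Dtx1, a regulator of Notch signalling, at 0.814 against 0.0157.

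Follicular genes were partial. Cxcr5, the receptor that leads B cells to follicles, was found in 33 of 78 core cells, at 0.918 (0.687 to 1.2), and Ccr7, which leads them to T cell zones, in 31 at 1.92. Fcer2a, the follicular marker CD23, was found in only 5, at 0.191 (0.0951 to 0.341). Cr2 and Fcer2a, which mark the marginal zone and follicular pools of the spleen, were thus each present in 5 cells. Of the age-associated list, Itgax and Cxcr3 had a UMI in 0 of 78 (an upper limit of 3.85% on cells with a UMI, not on cells that express the genes), Tbx21 was in 2 and Itgam in 4, while Fcrl5 was in 46 and Zeb2 in 38. Of the memory genes, Nt5e was found in 26 cells at 0.779 and Cd80 in 14 at 0.312. Cd38, a surface enzyme of mature B cells, was in 65 at 3.58.

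**Figure D3:**
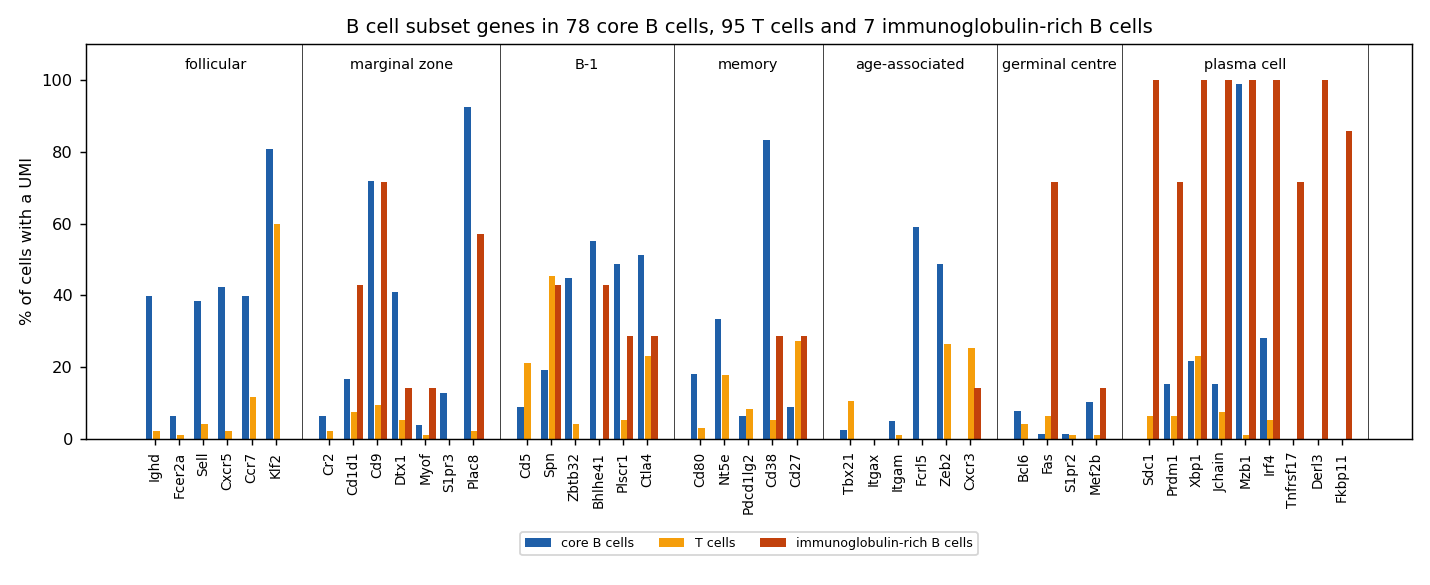
Percentage of cells with at least 1 UMI of subset genes, as bars grouped by list. Bars are for the 78 core B cells, the 95 T cells and the 7 immunoglobulin-rich B cells. The lists drawn are follicular, marginal zone, B-1, memory, age-associated, germinal centre and plasma cell. Bhlhe41 (43 cells), Zbtb32 (35) and Fcrl5 (46) were frequent in core B cells, while Itgax was at 0, and Sdc1, Xbp1, Irf4 and Derl3 were in all 7 immunoglobulin-rich cells.

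Class II genes were seen throughout the core B cells. H2-Aa, H2-Ab1, H2-Eb1 and the invariant chain gene Cd74 each had UMIs in all 78 core cells. Over all 88, 6 of 14 genes of the list were higher than in the other cells, and 13 of 14 were higher than in T cells. In core cells these counts were 11 and 14. Of all genes compared, 6.89% and 9.20% were higher over the 88 cells, and 10.4% and 11.8% over core cells. Cd74 was at 142 (139 to 145) in core cells, 46.4 in the other cells and 14.3 in T cells. The other cells include macrophages and dendritic cells that carry class II. H2-DMb2 and H2-Ob, which edit and restrain peptide loading, separated B cells more sharply: H2-DMb2 was at 4.31 (3.79 to 4.88) against 0.186, and H2-Ob at 2.96 (2.53 to 3.44) against 0.101. Cd83, a molecule that keeps class II at the surface, was at 5.87 against 1.69.

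Survival receptors and homing genes followed. Tnfrsf13c, the receptor for BAFF on which mature B cells depend, was at 2.29 (1.91 to 2.71) in core cells against 0.0258 in both the other cells and T cells. Tnfrsf13b, the TACI receptor, was at 1.89 (1.55 to 2.28) against 0.215. Tnfrsf17, the plasma cell receptor BCMA, was in 0 of 78 core cells and 5 of the 7 immunoglobulin-rich cells. Bcl2, which blocks apoptosis, was at 3.08 (2.65 to 3.57) against 0.575, and Bcl2l1 was at 0 of 78. Against T cells Bcl2 was not called, with log2 ratios of -0.095 over the 88 cells and 0.36 in core cells. Of 14 genes compared in the survival list, 3 were higher and 2 lower over all 88, and 5 and 1 in core cells. Of 11 homing genes, 5 were higher and 2 lower (7 and 2 in core cells), and S1pr1, the receptor for exit from tissue, was among the lower at 1.54 (1.24 to 1.90) against 3.88. Over all genes compared, 6.89% were higher and 25.1% lower, and 10.4% and 25.5% for core cells. The lower counts are thus no result about either list.

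Among cytokine genes, the anti-inflammatory cytokine gene Il10 was found in 28 of 78 core cells at 1.04 (0.793 to 1.34), in 0 of 95 T cells and in 1.75% of the other cells at 0.112. At 2500 UMIs the expected share was 17.7%. Il12a and Ebi3, whose products form IL-35, were at 0.554 (0.379 to 0.782) and 0.433 (0.280 to 0.639), against 0.0124 and 0.0955. Ltb, which builds lymphoid tissue, was at 7.81 in core B cells and 9.09 in T cells. Il6 was at 0 of 88 B cells, and so were Ccl3, Ccl4, Ccl5 and Ccl22. Of the 13 genes of this list that could be compared, 4 were higher and 6 lower than in the other cells, and 5 and 6 in core cells. Over all genes the shares were 6.89% and 25.1%, and 10.4% and 25.5% for core cells. Il5ra, the receptor for interleukin 5, was chosen after its values were seen: 37 of 78 core cells held a UMI, at 1.06 (0.808 to 1.36), against 0.00449 in the other cells and 0 of 95 T cells. Lipc (35 cells) and Cyp11a1 (34 cells), genes of lipid and steroid metabolism, were also picked afterwards, and Apoe, a lipid carrier, was at 24.9 (23.6 to 26.2) in core cells, 0.310 in T cells and 30.3 in the other cells.

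The genes with the largest ratios to the other cells, apart from the 3 that chose the cells, were led by Fcmr, the receptor for IgM, at a log2 ratio of 5.79 over the 88 cells. In core cells it was at 10.49 (9.67 to 11.4), in the other cells at 0.0348. Ighm (5.67), Siglecg (3.95), Plac8 (3.94), Iglc1 (3.85) and Tnfrsf13c (3.83) were also among the largest. The same end of the scale held 5 gene models without a common name: C130026I21Rik (4.58), AC168977.1 (4.27), AC133103.1 (4.23), A530040E14Rik (4.08) and A530032D15Rik (3.89). At the other end stood genes of endothelium and macrophages: Ly6c1 (-7.20), Lyz2 (-6.67), C1qa (-6.65), Emp2 (-6.64), Tmem100 (-6.45), Ctla2a (-6.43) and Car4 (-6.40), with Cldn5, Ramp2 and Egfl7, which chose the cells. Such ratios rest on very few UMIs in B cells: C1qa and Ctla2a were at 0.

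RNA of Cdkn2a, the gene that the reporter follows, was less common in B cells than in endothelial cells. UMIs were counted per gene, so the Cdkn2a transcript behind each of them is not known. Cdkn2a had a UMI in 27 of 88 B cells (30.7%, 21.3 to 41.4%), at 0.572 UMIs per 10000 (0.422 to 0.759). Over core cells the numbers were 25 of 78 and 0.796 (0.583 to 1.06). The 27 cells were all in library 1. Of them, 18 held 1 UMI, 5 held 2, 1 held 3, 2 held 5 and 1 held 7. Endothelial cells stood at 54.3% and 2.57, T cells at 7.37% and 0.258 (0.124 to 0.475), and all other cells at 33.6% and 1.31. The 550 remaining cells, neither B, T nor endothelial, stood at 15.1% and 0.4215 (0.366 to 0.484), a rate below that of core B cells. At 2500 UMIs the expected share was 15.6% in core B cells, 5.21% in T cells, 35.8% in endothelial cells and 6.47% in the remaining cells. The share was lowest in T cells among these classes, also at equal depth. mCherry itself had a UMI in 1 of 88 B cells, which was among the 3 cells with markers of other cells, and in 0 of 78 core cells. It had a UMI in 72 of 1256 other cells: 64 of 611 endothelial cells, 1 of 95 T cells and 7 of the 550 remaining cells. The sort was on the protein, and the position of the mCherry sequence relative to the 3' end of the transcript is not known from the labels.

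The inhibitors Cdkn1a and Cdkn2b were lower in B cells than in endothelial cells. Cdkn1a, the p53-driven inhibitor p21, was at 0.208 (0.107 to 0.363) in core B cells, 0.929 (0.651 to 1.29) in T cells and 7.99 in endothelial cells. Cdkn2b, the neighbour of Cdkn2a, was at 0.242 (0.133 to 0.407) against 2.83 in endothelial cells. Its intervals in T cells, at 0.155 (0.0569 to 0.337), and in the remaining cells, at 0.162 (0.128 to 0.202), overlapped that of core B cells. Of 19 genes of the arrest and senescence list compared, 0 were higher and 8 lower over the 88 cells, and in core cells 3 were higher and 7 lower. Over all genes compared, 6.89% were higher and 25.1% lower, and 10.4% and 25.5% for core cells. Ccnd3, the cyclin that B cells use in germinal centres, was at 0.0693 (0.0189 to 0.177) against 1.52 (1.16 to 1.97) in T cells, while Ccnd2 was at 2.75 against 3.48. The p53 targets held 0 higher and 3 lower of 14 compared over the 88 cells and over core cells alike, a lower share near the 25.1% of all genes and so no result about the list, with Phlda3 at 0.121 against 3.11 in the other cells.

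**Figure D4:**
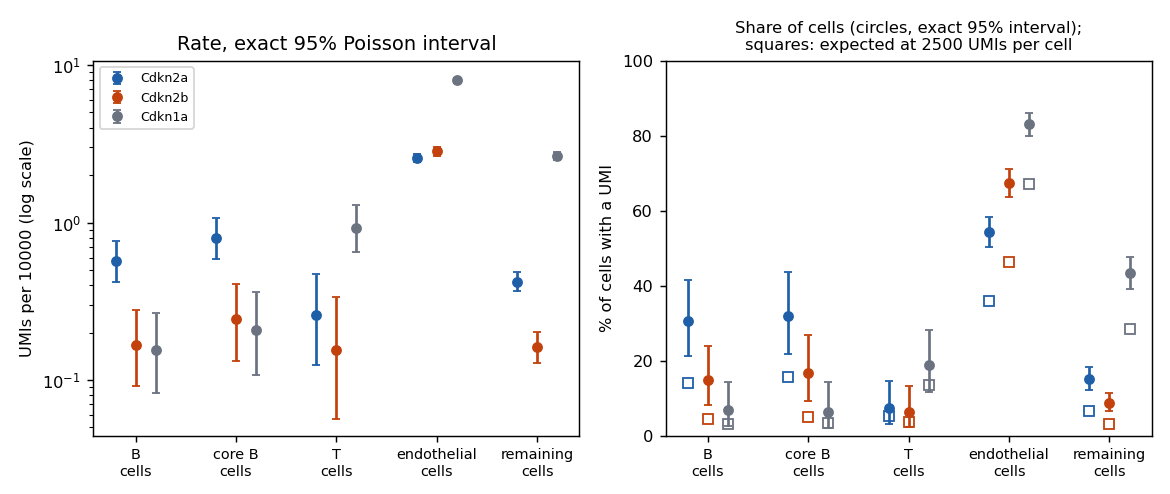
Cdkn2a, Cdkn2b and Cdkn1a in all B cells, core B cells, T cells, endothelial cells and the remaining cells. Left, UMIs per 10000 on a log scale with exact 95% Poisson intervals, and right, the percentage of cells with a UMI (circles, exact 95% intervals) and the share expected at 2500 UMIs per cell (squares). Endothelial cells are highest for each gene, and core B cells lie above T cells for Cdkn2a (0.796 against 0.258) and below them for Cdkn1a (0.208 against 0.929).

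Stress and interferon genes were more often lower than higher against the other cells, where 25.1% of all genes were lower and 6.89% higher. Of 19 immediate early and stress genes compared, 2 were higher and 10 lower over the 88, and in core cells 2 and 10 of 20. Fos was at 0.970 (0.732 to 1.26) in core cells, 4.42 in T cells and 10.8 in the other cells. Myc, a driver of growth, went the other way at 0.935 (0.702 to 1.22) against 0.117. Of 11 interferon genes compared, 0 were higher and 8 lower, and in core cells 0 and 7. Ifitm2, which blocks viral entry, was at 0.0693 against 9.14, while Ifi203 stood at 2.46 against 1.76.

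Dividing cells were rare. Of 15 proliferation genes, 55 of 88 B cells held 0, 32 held 1 to 3, and 1 cell held 10. That cell, a core cell of 24762 UMIs, held 11 UMIs of Mki67, 13 of Top2a, 97 of Hmgb2 and 18 of Lmnb1, together with 1 UMI of Cdkn2a. Mki67, a marker of cycling cells, was found in 4 of the 88.

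Dividing the B cells by whether they held any Cdkn2a UMI gives a description only, since Cdkn2a defines the split. The 27 cells with and the 61 without had median depths of 6963 and 6955 UMIs. Among core cells the medians were 6659 and 6658, but the deepest cells held 24762 with and 12837 without Cdkn2a. The core cells of 15449, 15577, 16329, 16592 and 24762 UMIs all held Cdkn2a. Depth was thus not matched at the upper end, and summed rates give these deep cells more weight. Of the 15 core cells with T cell markers, 7 held Cdkn2a and 8 did not. Of 4650 genes with a UMI in at least 20% of either side, 356 (7.66%) were higher and 65 (1.40%) lower with Cdkn2a, and over core cells (25 and 53) 211 of 4670 (4.52%) and 104 (2.23%). Of these, 156 higher and 29 lower genes were shared. Without the 18 cells, 674 genes were higher and 193 lower with Cdkn2a, against 356 and 65 over all 88. Several large ratios over all 88 rested on the cells set apart above. Scgb1a1 was at 219 with and 1.46 without Cdkn2a, and at 1.35 with 1 cell left out, and Jchain was at 0.324 and 161. In core cells Scgb1a1 was at 1.40 (0.942 to 1.99) and 1.88 (1.46 to 2.38), and Jchain at 0.372 and 0.221.

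B cell identity genes had overlapping intervals on the 2 sides of the core split, which does not show that they are equal. Ms4a1 was at 12.0 (10.6 to 13.6) with and 10.9 (9.87 to 12.1) without Cdkn2a, Ighm at 31.7 (29.4 to 34.2) and 29.6 (27.9 to 31.5), Zbtb32 at 1.40 (0.942 to 1.99) and 1.13 (0.811 to 1.53), and Bhlhe41 at 1.77 (1.25 to 2.43) and 1.32 (0.976 to 1.75). Of the 15 receptor genes compared, 0 were called in either direction. With 4.52% of all genes called higher and 2.23% lower, this count is no result about the list. The intervals of Ebf1 did not overlap, at 7.59 (6.47 to 8.85) with and 11.2 (10.2 to 12.4) without, a ratio under 2-fold.

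The genes called in core cells included several of low level. Cd80, a costimulatory ligand, was found in 9 of 25 cells with Cdkn2a, at 0.605 (0.322 to 1.03), and in 5 of 53 without, at 0.138 (0.0448 to 0.322). Cdkn2d, another cyclin-dependent kinase inhibitor, was found in 2 of 25 with, at 0.0931 (0.0113 to 0.336), and 17 of 53 without, at 0.607 (0.380 to 0.918). Id3, a partner that blocks E proteins, was at 0.791 (0.461 to 1.27) and 2.67 (2.17 to 3.26). Pml, the scaffold of nuclear bodies, was at 0.326 (0.131 to 0.671) and 0.965 (0.672 to 1.34), and Txndc11, an oxidoreductase of the endoplasmic reticulum, was in 0 of 25 against 12 of 53. Others rested on the dividing cell described above, which held 13 UMIs of Cks2. Cks2, a cell cycle gene, was at 0.838 with Cdkn2a and at 0.263 without that cell, and Hmgb2, a chromatin protein gene, at 6.19 and 1.89, the latter below the 2.43 of cells without Cdkn2a. Across all 4670 genes the intervals did not overlap for 96, of which 48 were higher.

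**Figure D5:**
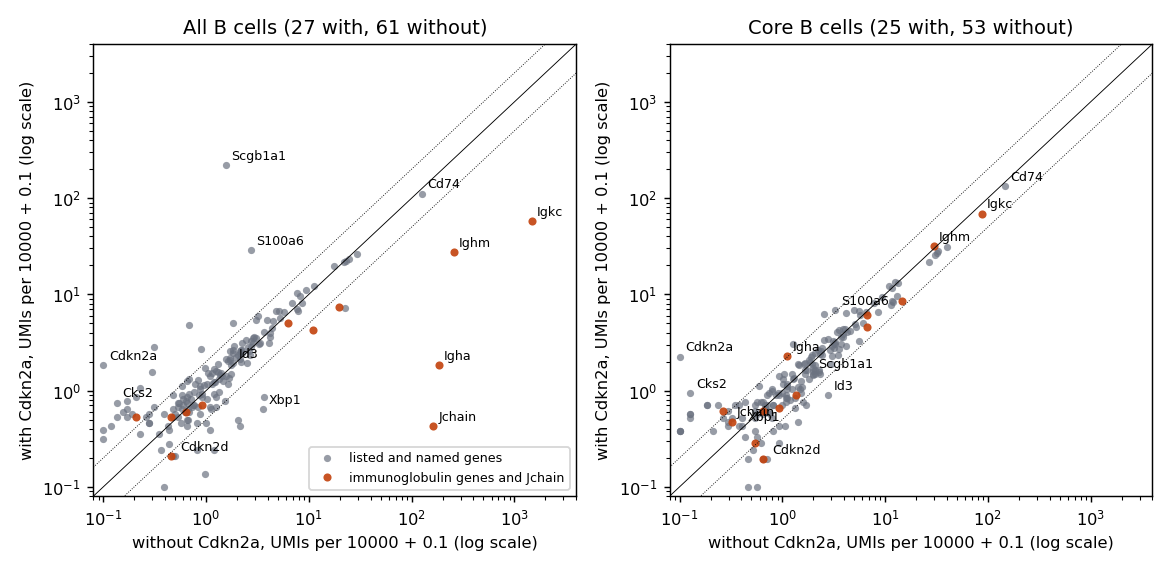
UMIs per 10000 + 0.1 in B cells with a Cdkn2a UMI (vertical) against cells without one (horizontal) on log scales, 1 point per listed or named gene, for all 88 B cells (left) and the 78 core cells (right), with the line of equality and dotted lines at 2-fold. Scgb1a1 and Jchain lie far from equality on the left and near it on the right, where Id3 and Cdkn2d lie below the lower dotted line.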

How the data were processed

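Cells were sorted for mCherry, captured with the 10x Genomics Chromium v3 3' kit and sequenced on an Illumina HiSeq2500, per the labels' protocols. Cell Ranger 3.0.2 and the mm10 build are named in the submitters' processing notes. Neither annotation, filters nor a doublet step is named there. As deposited, values are natural log values, ln(1 + UMIs per 10000), as the values show. Whole UMIs were recovered from them, with a largest deviation of 1.78e-10, and used for rates, exact intervals and thinning to 2500 UMIs. The table holds 15526 genes and 1344 cells, and 0 columns were left unused. Depth ran from 2517 to 49467 UMIs per cell. For a count of 0 the limit is 3 counts.

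The 88 cells, their lists (30 lists, 324 genes, 315 in the table) and the rules were chosen with earlier results of these data known. Named genes were the markers, inhibitors, Mki67, mCherry and constant genes, members of the lists by role, the 15 largest and 10 smallest ratios to the other cells and, for the Cdkn2a comparison, the 10 largest and 10 smallest whose intervals did not overlap. 1 gene under these rules is not reported here. Groups were compared by 2-fold ratios of rates, with no test. Positions and segments come from GENCODE M21, promoters from RefSeq. Python 3.11.15, numpy 2.4.6 and scipy 1.17.1 were used. On simulated data for the comparison with other cells, 100% of 100 genes raised and of 100 lowered 4-fold were found among 8666 compared. The changed genes were drawn from those above a minimum rate and with a UMI in at least 10% of B cells. Counts were Poisson draws with a single rate per gene for all B cells. The simulation checks the calculation, and says nothing about low genes, smaller changes or differences among B cells.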

Additional observations from a re-analysis of the deposited data

How the results depend on the processing

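The number of B cells ran from 70 to 108 over the alternatives, against 88. Genes higher than in the other cells numbered 555, 337 with any 2 of the 3 markers and 126 with a pseudocount of 1; genes lower numbered 2021, and 409 with a pseudocount of 1. Against T cells, 615 higher became 934 with a pseudocount of 0.01 and 108 with 1, and 861 lower became 148 with 1. The Cdkn2a rate of 0.572 became 0.796 in core cells. The split by Cdkn2a moved most. Its 356 higher genes became 624 with a pseudocount of 0.01, 13 with 1, 648 with a 10% filter, 1032 at or above the median depth, 674 without cells holding markers of another list, 211 in core cells and 196 without immunoglobulin-rich cells. Its 65 lower genes became 123, 16, 138, 158 and 193 under the first 5 of these, 112 with each cell weighted equally, 104 in core cells and 117 without immunoglobulin-rich cells. The 17 kappa cells became 45 at 80%, 9 at 95% and 10 in core cells, the 68 mixed cells became 40 at 80%, and the 1 cell without a heavy chain became 8 at a minimum of 10 UMIs.

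In core cells the ratios to other cells of Igkc (-1.76) and Jchain (-6.81) reversed. In the Cdkn2a split, Scgb1a1 reversed to -0.016 without cells holding markers of another list, -0.40 in core cells and -0.0089 without the 3 cells with markers of other cells. App reversed to -0.10 without cells holding markers of another list, and Timp2 to -0.37 in core cells. Jchain reversed to 0.56 in core cells and 0.44 without immunoglobulin-rich cells, Igha to 1.03 and 0.75, Xbp1 to 0.079 and 0.61, and in core cells Ighm to 0.10 and Glipr1 to 0.18. Of 1056 values for the comparison with other cells, 716 moved by less than the counting error and 338 by more, and of 342 for the split, 223 and 106; the others reversed. The cause of these changes was not tested beyond the cells removed. Core cells, leaving out the 7 or the 3 cells, and library 1 alone against T cells were chosen after seeing the data. No paired analysis was possible because the cells map to no sample. Pooled cells without replicates and the depth of single cells limit every value for low genes.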
